A study of Mus musculus with 462 samples.

Results

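Snhg17 and Snhg11 are neighbouring noncoding host genes on mouse chromosome 2, and their transcripts were followed across clones in which the first of them had been modified and clones in which it had not. The count files carry Snhg11 under its own name and Snhg17 as the row linc1329, and both rows were taken by name wherever a file listed them. They are 2 of 1588 transcript names in the series. Both are listed in 44.6% of the 439 libraries with a count file, and the series holds 462 samples in all. In the coordinates of the files (build mm9) linc1329 lies at chr2:158179087-158187280 and Snhg11 at chr2:158201374-158211881, so 14.1 kb separates them. The row linc1329 was taken as Snhg17 from its place: Bpi and Lbp precede it and Snhg11, Ralgapb and Adig follow it, which is also the order around Snhg17 in RefSeq.

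Snhg genes are transcribed and spliced as long noncoding RNAs whose introns hold small nucleolar RNAs, the guides of chemical modification of ribosomal and other stable RNAs. The intronic guide is cut out and kept, while the spliced exons form the poly(A)+ RNA that libraries of this kind read. Snhg11 has been described mainly in brain.

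Each library came from a clonal line of F1 mouse embryonic stem cells, a cross of strains 129 and Castaneus, grown in a serum-free medium with LIF and inhibitors of MEK and GSK3. Poly(A)+ RNA was read after hybrid selection, a capture of chosen transcripts with probes, and reads were assigned to the parental alleles. The study asked whether a modified noncoding locus acts on genes beside it on the same chromosome. Clones labelled Snhg17-PromoterDeletion (5, date label 150126) lack the promoter of Snhg17, and clones labelled linc1329-pAS (5, the last of the 3 date labels) carry a polyadenylation signal inserted in the same gene to end its transcription early. The series describes its modifications as heterozygous. The labels give neither the deleted interval, nor the insertion point, nor which allele was modified. Control clones were unmodified, 77 of them with the date label 150126 and 9 with 150416. Another 100 clones were modified at other loci, in 13 groups that make 14 comparisons because Gpr19-pAS carries 2 date labels. No Control clone has the last date label, so linc1329-pAS was set against the 17 clones of its own date that were modified on other chromosomes. Each clone is 1 line and 1 library, and p-values measure the spread between lines. Labels of modified clones name no plate, so the tests do not model plates. A difference between plates cannot be told apart from a modification.

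The RefSeq promoter windows of both genes are shown because the deletion removed the promoter of one while the RNA of the other was also measured. Each window runs from 250 bases before the annotated start to 50 bases after it, 5′ to 3′ on the strand of the gene, in build GRCm38.p6. Capitals mark the bases from the start on. Snhg17 is on the minus strand (chr2:158361473-158361772) and Snhg11 on the plus strand (chr2:158375463-158375762), so their starts face away from each other.
Snhg17: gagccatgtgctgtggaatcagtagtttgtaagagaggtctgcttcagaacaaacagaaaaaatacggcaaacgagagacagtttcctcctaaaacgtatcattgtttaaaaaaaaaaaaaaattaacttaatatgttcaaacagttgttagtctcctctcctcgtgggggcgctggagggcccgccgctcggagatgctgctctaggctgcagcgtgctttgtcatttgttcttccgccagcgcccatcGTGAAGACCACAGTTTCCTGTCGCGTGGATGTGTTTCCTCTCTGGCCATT
Snhg11: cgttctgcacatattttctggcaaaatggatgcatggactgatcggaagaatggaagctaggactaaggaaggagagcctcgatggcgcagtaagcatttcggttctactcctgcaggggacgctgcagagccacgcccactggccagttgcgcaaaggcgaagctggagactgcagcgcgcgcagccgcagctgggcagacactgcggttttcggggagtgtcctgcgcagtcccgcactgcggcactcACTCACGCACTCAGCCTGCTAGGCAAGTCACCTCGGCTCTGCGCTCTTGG
A search of both strands of these windows for common promoter elements found none of those looked for, and the share of the 32851 mouse windows of that length that hold each is given for scale. The TATA element, spelled TATAAA, occurs in 13.6% of all windows. The element read by NF-Y, spelled CCAAT, occurs in 37.4%. The element read by Sp1, spelled GGGCGG, occurs in 35.7%. The E box, spelled CACGTG, occurs in 7.15%. The element read by ETS factors, spelled CCGGAAG, occurs in 8.86%. A window for a further annotated start of Snhg17, a few bases downstream, holds GGGCGG on the opposite strand 42 bases after its start. The Snhg11 window is richer in G and C (60%, with 21 CpG) than the Snhg17 window (47%, with 14 CpG), against medians of 52.7% and 7 CpG over all windows.

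Libraries that list both genes held 62104 to 2932173 allele-assigned counts, with a median of 702020. Levels are given as CPM, the sum of both allele columns per 1000000 such counts. None of the 15 stem cell marker genes looked for is among the captured transcripts, and 1 of 22 markers of other cell types is (Krt8), so the cell type label could not be checked. One clone stands apart along the chromosome: linc2025-PromoterDeletion clone 5 had a median log2 allele ratio of 2.04 over the other captured genes of chromosome 2, where Control clones ran from -0.14 to 0.35. The 10 clones modified at Snhg17 ran from -0.13 to 0.35.

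In unmodified clones linc1329 was the steadier of the 2 transcripts. Its level in the 77 Control clones of 150126 ran from 1395 to 2369 CPM with a median of 1830, a 1.70-fold spread from lowest to highest. Snhg11 ran from 107.1 to 1795 CPM with a median of 451, a 16.8-fold spread. The ends of that range are single clones: without the highest the spread was 9.10-fold (next 974.5 CPM), and without the lowest, which had 14 Snhg11 counts in the shallowest Control library (130659 counts), it was 11.2-fold (next 160.4 CPM). On the log2 scale the SD between clones was 0.17 for linc1329 and 0.60 for Snhg11, where the median captured gene had 0.41, and 4.03% of 472 genes varied less than linc1329. Within plates (25 of them, as the labels number them) the SDs were 0.12 and 0.46. The SDs of the plate means were 0.13 and 0.47, so levels also varied from plate to plate. These are bulk clones, in which fewer cells that express a gene and less RNA per cell cannot be told apart.

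Levels moved with the date label, and for the 2 transcripts in opposite directions. Over clones modified at neither gene, the median of Snhg11 was 479 CPM in 150126, 1950 in 150416 and 3519 in the last. For linc1329 the medians were 1778, 1317 and 1283 CPM. Between Control clones of 150416 and 150126, Snhg11 was 2.08 higher and linc1329 0.55 lower on the log2 scale (permutation test, two-sided, p = 1e-05 for each, the smallest that 100000 resamples can give). The label is a number of 6 digits, and what differed between dates beyond it was not tested. Comparisons were therefore kept within a date.

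**Figure D1:**
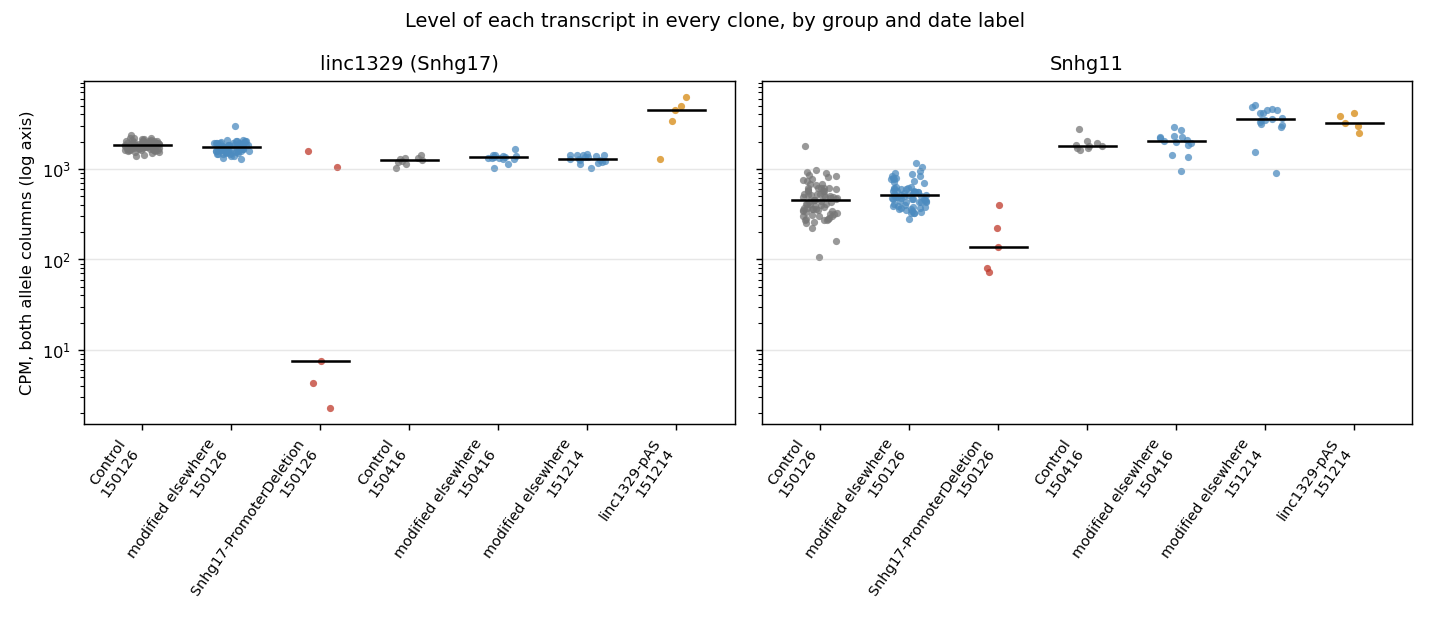
Level in CPM (both allele columns, log axis) of linc1329 (left) and Snhg11 (right) in every clone whose file lists them, 1 point per clone, with a bar at the median of each group and date label. In Snhg17-PromoterDeletion 3 clones have at most 7.65 CPM of linc1329, and 4 clones of linc1329-pAS have at least 3373 CPM. The medians of Snhg11 in clones modified at neither gene are 479, 1950 and 3519 CPM by date.

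Both alleles expressed the 2 genes in unmodified cells, with more counts in the first allele column. The log2 ratio of the first column to the second in Control clones of 150126 was 0.67 ± 0.17 for linc1329 (SD, n = 77; range 0.08 to 1.15) and 0.71 ± 0.33 for Snhg11 (n = 76; range -0.06 to 1.61). The files do not say which column is which strain. By date the medians for Snhg11 were 0.70 in Control clones of 150126, 0.55 in those of 150416 and 0.58 in the 17 clones of the last date.

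Promoter deletion left clones of 2 kinds. Clones 1, 2 and 3 had almost no linc1329 from either column, while clones 4 and 5 had lost it from one column and kept it on the other. In clone 1 linc1329 had 2 counts in the first column and 1 in the second, in clone 2 it had 1 and 0, and in clone 3 it had 3 and 6. Clone 4 had 1196 and 8, and clone 5 had 4 and 506. As CPM the totals were 4.36, 2.27, 7.65, 1575 and 1055, so clones 1, 2, 3 and 5 lay below every Control clone and clone 4 lay among them. The near absence of both columns in clones 1 to 3 is not what a heterozygous change describes, and why both are low was not tested. The value 0 in clone 2 allows up to 3 counts, or 6.80 CPM.

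The column that was kept lay above the Control range in clones 4 and 5. In clone 4 the first column of linc1329 was at 1565 CPM, 140.6% of the Control median for that column and above the highest Control clone (1417 CPM), with the second column at 1.48% of its median. In clone 5 the second column was at 1046 CPM, 148.3% of its median and above the highest Control clone (952 CPM), with the first at 0.743%. The first column held 99.3% of linc1329 counts in clone 4 (95% Wilson interval 98.7 to 99.7%) and 0.784% in clone 5 (0.305 to 2.00%). Such intervals cover counting error only.

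Snhg11, which was not modified, was also lower. In the first column and then the second it had 39.2 and 40.7 CPM in clone 1, 27.2 and 45.3 in clone 2, 86.7 and 50.1 in clone 3, 358.5 and 41.9 in clone 4 and 47.6 and 173.7 in clone 5. The totals were 79.9, 72.5, 136.8, 400.4 and 221 CPM, against 107.1 to 1795 in Control clones. Clones 1 and 2 lay below every Control clone, and clones 3, 4 and 5 lay within the Control range but below its median of 451. The place of clone 3 rests on the Control clone of 14 counts, since the next Control clone was at 160.4 CPM, above clone 3. Clones 1 to 3, which had lost linc1329 from both columns, had the lowest Snhg11 of the group.

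Column by column, low Snhg11 went with low linc1329. Where linc1329 was lost from both columns (clones 1, 2 and 3), Snhg11 was at 9.71 to 30.96% of the Control median in the first column and at 25.03 to 30.8% in the second. In clone 4 the column that had lost linc1329 had 25.8% of Snhg11 and the column that kept it had 128.1%. In clone 5 these values were 16.99% and 106.8%. All 8 columns without linc1329 were thus at or below 30.96% of the Snhg11 median and both columns with it were above 100%. Of the 8 low values, 3 (the first column in clones 1, 2 and 5) lay below every Control clone, and 8 did when the Control clone of 14 counts was left out, the next Control values being 91.3 CPM in the first column and 69.2 in the second. This count by column was made after the values were seen and was not tested.

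**Figure D2:**
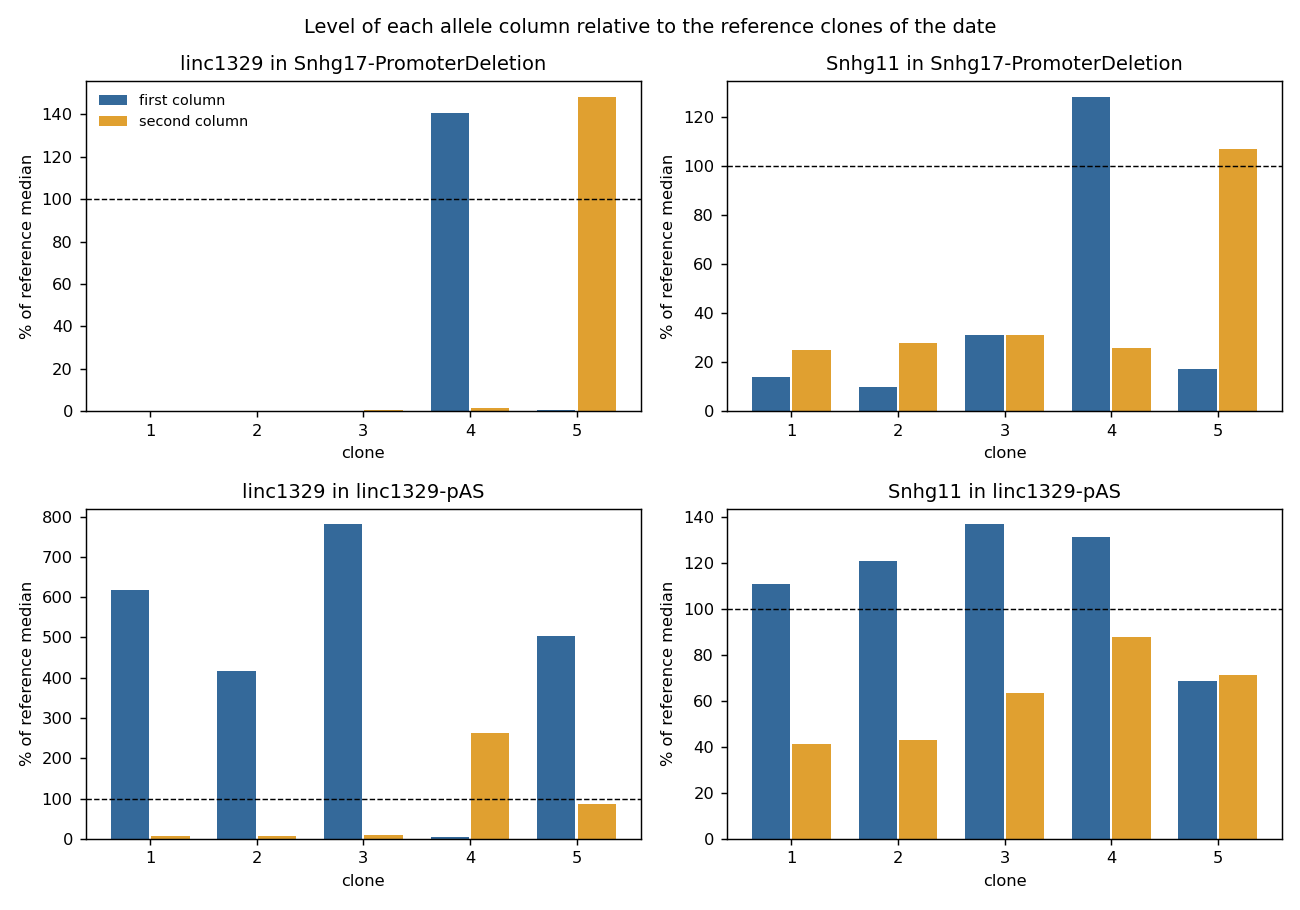
Level of linc1329 (left) and Snhg11 (right) in each allele column as a percentage of the reference median of that column, for the 5 clones of Snhg17-PromoterDeletion (top) and of linc1329-pAS (bottom). The dashed line marks 100%. In the top row Snhg11 is at or below 30.96% in every column without linc1329 and above 100% in both columns with it. In the bottom row the first column of linc1329 reaches 416 to 781% in 4 clones and Snhg11 stays between 41.2 and 136.6%.

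By total count both transcripts passed the test in Snhg17-PromoterDeletion. linc1329 fell by 1.79 on the log2 scale (SE 0.38; edgeR quasi-likelihood test, adjusted p = 0.00161) and Snhg11 fell by 1.42 (SE 0.33, adjusted p = 0.00259). Calls were frequent in this group: 29.5% of the 471 genes tested were called and 16.1% were called lower. The fold changes average clones of both kinds: without any one clone they ran from -1.46 to -2.79 for linc1329 and from -1.22 to -1.93 for Snhg11, and each stayed past the threshold.

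By allele ratio calls were rare, and both transcripts were among them. The test compares the mean absolute deviation of the log2 ratio from the pooled median, over clones with at least 20 allele counts. For linc1329 the deviation was 6.98 ± 0.73 (SD, n = 2, clones 4 and 5) against 0.13 ± 0.11 in Control clones (n = 77; exact permutation test over 3081 splits, two-sided, adjusted p = 0.0406). For Snhg11 it was 1.43 ± 1.05 (n = 5) against 0.26 ± 0.19 (n = 76; permutation test, adjusted p = 0.00427). These are 2 of 4 calls among 427 genes (0.937%). The Snhg11 log2 ratios were -0.05, -0.71, 0.78, 3.08 and -1.85 in clones 1 to 5, so clones 4 and 5 lie far outside the Control range on opposite sides, clone 2 below it, clone 1 within it by a narrow margin and clone 3 near its median. The Snhg11 call rests on clones 4 and 5: without clone 4 the adjusted p was 0.139 and without clone 5 it was 0.141. Against clones of that date with a modification on another chromosome, neither transcript passed (permutation test, adjusted p = 0.106 for each). The differences in deviation were 6.80 for linc1329 and 1.01 for Snhg11, where Control clones gave 6.85 and 1.17. For linc1329 this setting cannot decide. Its 2 clones against fewer reference clones allow fewer splits, and the smallest p the test can give is larger.

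Counts of linc1329 were higher in 4 of the 5 clones with the insertion. Totals in linc1329-pAS clones 1 to 5 were 4986, 3373, 6295, 1300.1 and 4461 CPM, against 1020 to 1467 (median 1283) in the 17 clones of the date. Clones 1, 2, 3 and 5 lay above every reference clone and clone 4 lay among them. The log2 fold change was 1.69 ± 0.16 (SE; edgeR, adjusted p = 3.51e-08), in a group in which 10.1% of 454 genes were called and 6.17% were called higher and 3.96% lower.

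The high counts came from one allele column of each clone, and in 4 clones the other column was low. In clones 1, 2 and 3 the first column of linc1329 was at 618%, 416% and 781% of the reference median and the second at 7.68%, 7.95% and 8.22%. Clone 4 had the reverse, with 3.67% in the first column and 264% in the second. Clone 5 had 505% in the first column and 86.5% in the second, which lay within the reference range. The first column held 99.3% (95% Wilson interval 98.4 to 99.7%), 98.9% (97.98 to 99.4%), 99.4% (98.96 to 99.6%), 2.26% (1.15 to 4.40%) and 90.7% (86.97 to 93.4%) of linc1329 counts in clones 1 to 5. So 4 clones had a low column and clone 5 had none, and in each of the 5 clones the higher column exceeded every reference clone. Clone 5 was the shallowest library of the group, with 71958 allele counts against 162064 to 378556 in the others. Its second column held 30 counts of linc1329. The counted rows do not show where along the gene the reads lie.

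Snhg11 totals did not stand apart in linc1329-pAS. They were 3005, 3254, 3886, 4106 and 2501 CPM in clones 1 to 5, all within the reference range of 908 to 5116 (median 3519). The log2 fold change was -0.04 ± 0.21 (SE; edgeR, adjusted p = 0.895). Against Control clones of other dates it became 2.29 (adjusted p = 8.11e-10), a contrast that also spans the dates between which Snhg11 differed.

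The allele ratio of Snhg11 lay above the reference range in 4 of the 5 clones. The log2 ratios were 2.06, 2.12, 1.74, 1.22 and 0.58 in clones 1 to 5, against 0.27 to 0.79 (median 0.58) in the reference clones. Clone 5 lay at the reference median. The second column was at 41.2%, 43.1%, 63.5%, 87.7% and 71.1% of its reference median and the first at 110.6%, 120.8%, 136.6%, 131.05% and 68.5%. Every one of these levels lay within the reference range for its column. The low end of the second-column range rests on a single clone, Slc30a9-pAS clone 6, at 332.0 CPM. The next reference value was 694.3 CPM, above the second column of clones 1 (580.0 CPM) and 2 (606.2 CPM). The mean absolute deviation was 0.95 ± 0.63 (SD, n = 5) against 0.12 ± 0.09 (n = 17). That difference did not pass over all genes (exact permutation test over 26334 splits, unadjusted p = 0.00065, adjusted p = 0.0579). It passed with the allelic fraction in place of the log2 ratio (adjusted p = 0.0489) and with the ratio taken relative to chromosome 2 (0.0477). It also passed without clone 5 (0.0332) and with Control clones of any date (0.00149), a setting in which 75 genes were called by allele. It did not pass without clone 1, 2, 3 or 4 (permutation test, adjusted p 0.107 to 0.176) or with a minimum of 50 allele counts (0.0639). For linc1329 itself the deviation was 5.38 ± 1.64 against 0.14 ± 0.14 (exact permutation test, adjusted p = 0.0151), 1 of 2 calls among 398 genes (0.503%). That call was lost without clone 1 (0.0665), clone 3 (0.0630) or clone 4 (0.0648). The differences in deviation were then 5.04, 4.96 and 5.05, against 5.24 with all 5 clones. With 1 clone fewer the exact test has fewer splits, and the smallest p it can give is larger. These losses therefore do not show that the call rests on those clones.

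Within a clone, the sign of the Snhg11 deviation was compared with that of linc1329, that is, with the column in which linc1329 was relatively high. Signs matched in both promoter deletion clones with a linc1329 ratio, with Snhg11 at 2.38 and -2.55 where linc1329 was at 6.46 and -7.49 relative to the reference median (log2). In linc1329-pAS clones 1, 2 and 3 had Snhg11 deviations of 1.48, 1.55 and 1.17 beside linc1329 deviations of 6.2, 5.63 and 6.51. Clone 5 had the same sign but a Snhg11 deviation of only 0.0055 beside 2.51. Clone 4 went the other way, with 0.64 for Snhg11 and -6.10 for linc1329, so Snhg11 deviated to the first column in all 5 insertion clones, whichever column of linc1329 was high. In all, 6 of 7 clones shared a side (exact sign test, two-sided, p = 0.125, where the smallest p 7 clones can give is 0.0156).

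**Figure D3:**
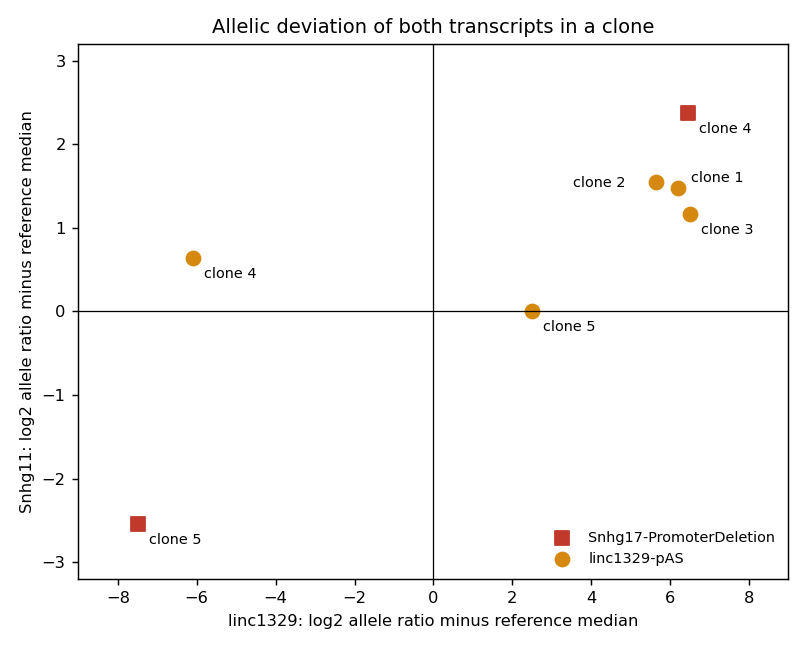
Deviation of the log2 allele ratio from the reference median for linc1329 (x axis) and Snhg11 (y axis) in the 7 clones with at least 20 allele counts of both, 1 point per clone. Promoter deletion clones 4 and 5 lie in opposite corners at 2.38 and -2.55, and linc1329-pAS clone 4 is the one clone with opposite signs.

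The 2 modifications differed most in the total of linc1329. Relative to the median of its own reference, log2 CPM was -5.26 ± 4.37 (SD, n = 5) after promoter deletion and 1.49 ± 0.88 (n = 5) after insertion, a difference of -6.75 (exact permutation test, two-sided, p = 0.00794, the smallest that 252 splits can give; adjusted over 5 measures 0.0397). The call was lost without any one of the 5 insertion clones (exact permutation test, adjusted p 0.0794 to 0.0992). On this relative scale each of the 5 clones with the deletion was lower than each with the insertion. In CPM deletion clone 4 (1575) was above insertion clone 4 (1300.1), and both lay among their reference clones. For Snhg11 the means were -1.60 ± 1.03 and -0.09 ± 0.29, and the difference of -1.51 did not pass the adjustment (exact permutation test, p = 0.0238, adjusted 0.0595). The absolute allelic deviation of Snhg11 was 1.43 ± 1.05 against 0.97 ± 0.65, a difference of 0.47 (exact permutation test, p = 0.421, adjusted 0.421), and the absolute deviation of linc1329 differed by 1.59 (p = 0.333, adjusted 0.417; n = 2 and 5). The signed deviation of Snhg11 differed by -1.42 (exact permutation test, p = 0.151, adjusted 0.251). The groups carry different date labels, so modification and date cannot be told apart beyond this scaling to each date's reference.

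Where neither gene was modified, linc1329 was called lower in 4 of 14 comparisons and higher in none, and Snhg11 was called in none. In these comparisons 24.4% of tests were called and 13.7% were called lower, so a rate of 4 in 14 is to be read against that. linc1329 fell by 0.26 in Snhg3-PromoterDeletion (edgeR adjusted p = 0.00111), by 0.19 in linc1423-PromoterDeletion (0.0105), by 0.23 in linc1509-PromoterDeletion (0.0171) and by 0.26 in linc2025-PromoterDeletion (0.000358) on the log2 scale. Those 4 groups have the same 77 reference clones, and their medians of 1530, 1612, 1714 and 1595 CPM all lay within the Control range. Of all genes tested, 21.6%, 16%, 7.17% and 26.6% were called lower in these groups. Against Control clones of any date, 3 of the 4 calls were lost (edgeR adjusted p = 0.0728 for Snhg3-PromoterDeletion, 0.234 for linc1423-PromoterDeletion and 0.222 for linc1509-PromoterDeletion), while linc1329 was then called lower in 6 of 14 comparisons, a contrast that spans dates. Over the 14 comparisons the log2 fold change of linc1329 ran from -0.26 to 0.16. For Snhg11 it ran from -0.30 to 0.53, with an unadjusted p below 0.05 in 2 comparisons (linc1536-PromoterDeletion, 0.53, p = 0.0283, and linc1536-pAS, 0.27, p = 0.0162), and DESeq2 called the first of them.

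By allele ratio neither transcript was called in any of the 14 comparisons (permutation test; unadjusted p below 0.05 in 3 comparisons for each), where 1.45% of tests were called. In Control clones of 150126 and the groups of that date modified elsewhere, the median log2 ratio of Snhg11 was 0.14 in Crlf3-PromoterDeletion, 0.25 in Rcc1-PromoterDeletion, 0.29 in linc2025-PromoterDeletion, 0.56 in Gpr19-PromoterDeletion and 0.57 in linc1423-PromoterDeletion. It was 0.70 in Control clones, 0.89 in linc1509-PromoterDeletion, 0.94 in linc1536-PromoterDeletion, 1.02 in Slc30a9-PromoterDeletion and 1.08 in Snhg3-PromoterDeletion. Medians of linc1329 over the same groups ran from 0.46 to 0.84. Differences between these groups were not tested. The unadjusted p of the Snhg11 deviation was 0.00256 in Crlf3-PromoterDeletion (permutation test, adjusted 0.136).

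A few single clones deviated by more than 1 log2 unit without a modification at either gene. In linc2025-PromoterDeletion clone 5 both ratios were high, at 2.60 for linc1329 and 2.07 for Snhg11, as was the median of the whole chromosome (2.04). In linc1536-PromoterDeletion clone 5 the Snhg11 ratio was 2.06 while the chromosome was at 0.32. The linc1329 ratio of that clone lay to the same side, at 1.48, above the highest Control clone of 150126 (1.15). So both transcripts deviated to the first column there with neither gene modified. In Gpr19-pAS clone 2 of 150416 the Snhg11 ratio was -0.62, with the chromosome at 0.04. Without linc2025-PromoterDeletion clone 5 the linc1329 total in that group was -0.28 (adjusted p = 0.000438), so that call does not rest on it.

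**Figure D4:**
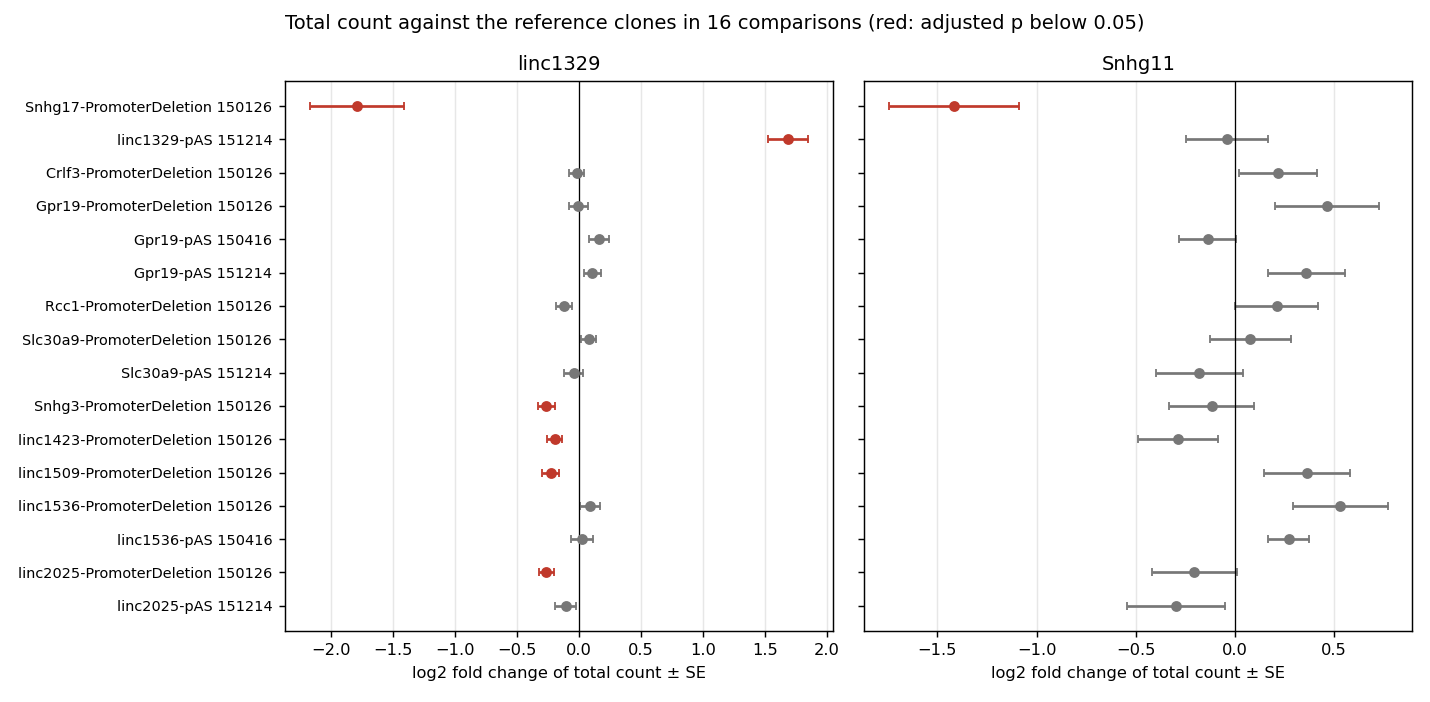
Log2 fold change of total count (point) with its SE (bar) for linc1329 (left) and Snhg11 (right) in 16 comparisons, the 2 modifications of Snhg17 at the top. Red points have an edgeR adjusted p below 0.05. Snhg11 is red in Snhg17-PromoterDeletion alone, at -1.42, while linc1329 is red there (-1.79), in linc1329-pAS (1.69) and in 4 groups modified elsewhere (-0.26 to -0.19).

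Across Control clones the levels of the 2 neighbours were not related in one direction. Over 77 clones of 150126 Pearson's r of log2 CPM was 0.02 (permutation p = 0.881) and Spearman's rho 0.17 (p = 0.149), adjusted over 4 relations 0.881 and 0.298. With the 2 clones farthest from the median left out r was 0.13. Centred within plates, r became -0.35 (permutation p = 0.00194, adjusted 0.00776) and rho -0.24 (p = 0.0340, adjusted 0.136), and r was -0.35 without the 2 farthest clones. The allele ratios gave r = 0.16 (p = 0.166, adjusted 0.392) and rho = 0.27 (p = 0.0166, adjusted 0.0663) over 76 clones, with r = 0.26 without the 2 farthest, and r = -0.02 (p = 0.833) within plates. In the 9 Control clones of 150416 r was -0.48 for totals (exact permutation p = 0.196, adjusted 0.392; rho -0.13) and 0.12 for ratios (exact permutation p = 0.749, adjusted 0.881; rho 0.17). Without the 2 farthest clones these were -0.09 and 0.49.

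The genes whose plate-centred level was most like that of each transcript were different ones. For Snhg11 they were Jmjd1c, of the histone demethylase family (rho 0.69), Dusp16, a phosphatase of MAP kinases (0.62), and Sec24a, a coat protein of vesicles leaving the endoplasmic reticulum (0.60), over 77 Control clones. For linc1329 they were Nat10, an acetyltransferase of RNA (0.56), Rpa2, a subunit of replication protein A (0.51), and Ttll12 (0.46). In the list of 471 genes ordered by likeness to Snhg11, linc1329 ranked 374, and Snhg11 ranked 431 in the list for linc1329. These values share libraries and depth and are given as a description.

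Of the 25 other captured genes within 1 Mb, 14 could be tested by total count in Snhg17-PromoterDeletion, and 4 of them were called lower and none higher. Over all genes tested in this group 29.5% were called and 16.1% were called lower, so the count is to be read against those shares. A difference from them was not tested. At an unadjusted p below 0.05 edgeR had 9 of the 14, some higher and some lower. They include Rprd1b and 2010009K17Rik, which overlap and had nearly equal log2 fold changes (0.192 and 0.194). The share of all genes at an unadjusted p below 0.05 is not given here for either modified group. Such local counts therefore have no background to be read against. Within 200 kb only D630003M21Rik, 124.1 kb away, and Ralgapb, a subunit of a complex that inactivates Ral GTPases, reached the count minimum. D630003M21Rik went from a Control median of 38.1 CPM to 15.3 (log2 fold change -1.19 ± 0.33, edgeR adjusted p = 0.00744), whereas Ralgapb, 48.3 kb away on the far side of Snhg11, had 0.06 ± 0.12 (adjusted p = 0.712). Lbp and Bpi, which encode binders of bacterial lipopolysaccharide, were too low to test, with Control medians of 2.35 and 9.21 CPM. The other 3 calls lay farther out. They were Slc32a1, the vesicular transporter of GABA (-3.81 ± 0.99, adjusted p = 0.00595, from a median of 12.3 CPM to 0 with 4 counts in clone 1 and 0 in the others, so the fold is limited by the floor of 3 counts and was -7.08 without clone 1), Tgm2, a transglutaminase that cross-links proteins (-1.73 ± 0.59, 0.0246), and Manbal (-0.44 ± 0.15, 0.0246). The Manbal call was lost without any one of the 5 clones (adjusted p 0.0503 to 0.0664) and the Tgm2 call without clone 1, 2, 3 or 4 (0.0514 to 0.0682). Against clones of the date modified on another chromosome Tgm2 was at -2.90 (adjusted p = 0.00806).

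Apart from Snhg11, which passed after promoter deletion but not after insertion, no local gene passed the allelic test. In Snhg17-PromoterDeletion 0 of 12 passed (permutation test, 0 at an unadjusted p below 0.05) and in linc1329-pAS 0 of 13 (1 at an unadjusted p below 0.05). With 0.937% and 0.503% of all genes called, these counts of 0 do not set the local genes apart. By total count 0 of 16 local genes passed in linc1329-pAS (edgeR; 3 at an unadjusted p below 0.05, 1 called by DESeq2), where 10.1% of all genes were called. The median log2 fold change of the local genes was 0.03 after promoter deletion and -0.04 after insertion, against -0.02 and -0.05 over all genes tested. Within 200 kb, 4 genes could be tested after insertion. Their log2 fold changes were -0.70 ± 0.29 for D630003M21Rik (edgeR adjusted p = 0.117), -0.40 ± 0.40 for Lbp (0.512), 0.04 ± 0.08 for Ralgapb (0.758) and -0.58 ± 0.61 for Arhgap40 (0.539).

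The other snoRNA host genes in the capture, Snhg3 and Snhg12 (2 of 23 looked for), did not pass in either group by edgeR or DESeq2. After promoter deletion the log2 fold change was 0.06 ± 0.10 for Snhg3 (edgeR adjusted p = 0.667) and -0.22 ± 0.10 for Snhg12 (0.0799). After insertion it was 0.16 ± 0.14 (0.468) and -0.12 ± 0.11 (0.471). At unadjusted p below 0.05 edgeR had Snhg12 alone, after promoter deletion.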

How the data were processed

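Poly(A)+ RNA was read after hybrid selection in the clonal libraries whose deposited tables list both transcripts. The deposited tables hold raw whole-number counts in 2 columns, which the values and the series design show to be the parental alleles. The submitters' processing notes give mm9 as the build. The aligner, the counter, its use of strand and any filter were not given in the sources used here. One row of 692 with the counts of an overlapping row was dropped, leaving 691. Of 3304 pairs of libraries of one group, 0 had identical counts and 0 differed by as little as sampling noise.

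Total counts (both columns) were tested with edgeR 4.0.16 (quasi-likelihood, TMM, mean count of at least 10, Benjamini-Hochberg over all genes), with DESeq2 1.42.0 as an alternative. Allele ratios used a pseudocount of 0.5 and clones with at least 20 allele counts, and their absolute deviation from the pooled median was compared by permutation, exact up to 100000 splits and otherwise with 100000 resamples. Genes with at least 2 modified and 5 reference clones were tested. The threshold was an adjusted p of 0.05. Differences between the modifications used log2 CPM with a pseudocount of 1. Python 3.11.15, NumPy 2.4.6, SciPy 1.17.1, pandas 2.3.3, matplotlib 3.10.9 and R 4.3.3 were used. Both tests were tested on simulated data. References were Control clones of the date label or, where it has none, clones modified elsewhere, and plates were not modelled because the labels of modified clones give none.

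Named genes are both transcripts, captured genes within 1 Mb (those within 200 kb and up to 6 called), other snoRNA hosts and the 3 genes most like each transcript. The transcripts, lists and tests were chosen with earlier results of these data known. Promoter sequences are from RefSeq (GRCm38.p6), with 2 of 2 genes matched.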

Additional observations from a re-analysis of the deposited data

Results flagged for a closer look

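Of 67 sets of 4 to 10 clones of one group and date in which the level or allele ratio of either transcript was looked at, 8 held a clone far from the others by Dixon's test, where chance flags about 1 in 20. In linc2025-PromoterDeletion clone 5 the log2 ratio was 2.60 for linc1329 (next clone 0.69) and 2.07 for Snhg11 (next 0.57), beside a chromosome 2 median of 2.04. In linc1536-PromoterDeletion clone 5 the Snhg11 ratio was 2.06 (next 1.02) and the level of linc1329 was 2989 CPM (next 1860.0), with the chromosome 2 median at 0.32. The level of Snhg11 was 1176 CPM in Rcc1-PromoterDeletion clone 3 (next 716) and 2752 CPM in a Control clone of 150416 (next 2036). linc1329 was at 1656 CPM in Gpr19-pAS clone 2 of 150416 (next 1425), and its log2 ratio was 0.28 in Slc30a9-PromoterDeletion clone 6 (next 0.58). No clone of Snhg17-PromoterDeletion or linc1329-pAS was among these 8. The remaining result set apart is the difference in linc1329 total between Snhg17-PromoterDeletion and linc1329-pAS, -6.75 on the log2 scale (exact permutation test, adjusted p = 0.0397), which was tested directly on clones of different dates and lost its call without any one of the 5 insertion clones (adjusted p 0.0794 to 0.0992). The causes of these values were not tested.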

How the results depend on the processing

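No paired analysis was possible because clones of different groups are separate lines whose numbers do not pair them. The totals of linc1329 and Snhg11 in Snhg17-PromoterDeletion kept direction and call under each alternative run. With Control clones of any date, 90 genes were called in that group, against 29.5% of 471 as reported, the Snhg11 total in linc1329-pAS became 2.29 (-0.04), genes called there 243 (46 by edgeR, 76 by DESeq2) and genes called by allele 75 (2), the Snhg11 deviation passed (0.64), and Snhg11 was called in 5 groups modified elsewhere (0; DESeq2 1). With clones of the date modified on another chromosome, the deviations in Snhg17-PromoterDeletion were 6.80 and 1.01 and no longer passed, with 0 genes called by allele (4). The same held less linc2025-PromoterDeletion clone 5, a setting chosen after seeing the data (6.83, 1.02 and 0). For linc1329 both settings have fewer reference clones than the Control set, which raises the smallest p its 2 clones can give. With the allelic fraction 7 genes were called by allele after deletion and 6 after insertion, and the Snhg11 deviation after insertion passed as a fraction (0.12) and relative to the chromosome (0.78). Centring within plates turned the correlations to -0.35 and -0.024 in 150126 and to 0.56 for totals in 150416. Leaving out 1 clone gave 79 to 95 genes called by total and 0 to 4 by allele after deletion, 22 to 41 and 0 to 3 after insertion. The deviation of Snhg11 ran from 0.90 to 1.51 after deletion and from 0.70 to 1.03 after insertion, that of linc1329 from 4.96 to 5.96 after insertion, and the Snhg11 total after insertion from -0.13 to 0.039. The difference between modifications ran from -8.01 to -5.78 for the linc1329 total, which lost its call without any 1 insertion clone, from -1.87 to -1.25 for the Snhg11 total, which passed without deletion clone 4 or 5, and from -2.13 to -0.89 for the signed Snhg11 deviation, which passed without deletion clone 4. The linc1329 deviation after deletion could not be computed without clone 4 or 5. Without linc1536-PromoterDeletion clone 5, also chosen after seeing the data, the Snhg11 deviation there became -0.079 and the linc1329 total -0.075. The cause of these changes was not tested, apart from the fewer clones of the settings that leave one out. Of 287 values under alternatives, 71 changed direction, call or count; the pseudocount, minimum of allele counts and filter changed no call of the 2 transcripts.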
